A study of Mus musculus with 6 samples.

Results

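Solute carriers are membrane proteins that move small molecules and ions across the cell surface and the membranes of organelles. A total of 94 solute carrier genes were described here, of 4994 genes in the deposited expression table. They are the rows whose gene name begins with Slc and a digit, which number 111, without the 12 mitochondrial carriers of the Slc25 family and without 5 further genes, Slc2a1, Slc16a3, Slc7a14, Slc12a2 and Slc26a4. Of the 94, 93 are annotated as protein coding. The exceptions to the label are Slc2a4rg-ps, a pseudogene, and Slc9a3r1, a scaffold protein gene that carries the name of the exchangers it binds.

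Expression was measured by RNA-seq in inner ear organoids, which are 3-dimensional cultures, of wild-type mouse epithelial cells per the labels. All 6 cultures received 20 ng/mL EGF, 10 ng/mL bFGF, 50 ng/mL IGF and 3 µM CHIR99021, an inhibitor of the kinase GSK3, with fresh medium every 2 days. The PD group (n = 3) was also grown for 10 days with 1 µM PD0325901, which blocks the MEK kinases of the ERK pathway, and the DMSO group (n = 3) for 10 days with the same volume of the solvent. The study asked how the inhibitor might promote the formation of hair cells. Age of the animals, the number of animals and whether replicates were grown as separate cultures are not stated in the labels, so the p-values reflect the spread among the samples at hand, and that spread may be technical.

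Most carriers of this kind use a gradient that another protein has built. Sodium-coupled carriers draw on the sodium pump, many lysosomal and endosomal carriers draw on protons, and exchangers trade one solute for another. In the inner ear such carriers set the potassium, chloride and bicarbonate of the endolymph, the fluid that bathes the hair bundles, and supply the avascular sensory epithelium with fuel and amino acids. Substrate classes were assigned by family from general knowledge of each family, and a class says nothing of the protein or transport in these cultures.

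Every gene of the table passes a fold of 1.5 upward or 0.667 downward in the authors' deposited table, where no adjusted p exceeds 0.0499, so the table is a selection on these same samples and this same comparison. Solute carrier genes outside it are not analysed here. Values are a normalized signal with no stated scale. Depth is unknown, and levels of the solute carrier genes are therefore compared between libraries and not between genes. Sums over marker lists and cut-offs on the value take the deposited signal as it stands. Summed over the listed genes, DMSO libraries ran from 289255 to 293278 and PD libraries from 290560 to 296997.

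The label of epithelial cells was set beside marker lists. Of 6 epithelial markers 5 are listed, and Epcam stood at 803.1, 866.15 and 840.04 in DMSO and at 524.15, 496.1 and 522.49 in PD. Summed over the list, epithelial markers ran from 1808 to 1920 in DMSO and from 887 to 900.3 in PD, with 4 lower and 1 higher. The higher one was Cdh1, which rose from 53.6 ± 1.54 in DMSO to 114 ± 9.27 in PD (SD, n = 3). All 9 mesenchyme markers are listed, 7 higher and 2 not called, and their sum ran from 1737 to 1910 in DMSO and from 3972 to 4487 in PD; most of that sum was Dcn, Lum and Vim, while Col1a2 was listed at 0 in 1 DMSO library and at no more than 0.16 elsewhere. Hair cell markers, of which 5 of 8 are listed and all 5 rose, summed to 0.57 to 1.39 in DMSO and 13.4 to 16.7 in PD. Most of that sum in PD was Calb1, at 9.99, 14.59 and 10.32, while Otof, Pou4f3, Pvalb and Slc17a8 reached at most 1.91, and Slc17a8 is itself one of the 94 genes. Neuron markers, 4 of 5 listed and all 4 higher, summed to 0.67 to 0.85 in DMSO and 6.92 to 7.65 in PD. Endothelial markers, 4 of 5 listed with 3 higher and 1 lower, summed to 45.8 to 49.4 and 35.7 to 42.2, and glial markers, 3 of 5 listed with 2 higher and 1 lower, to 17.1 to 20.0 and 19.4 to 19.7. Of 7 otic epithelial markers 2 are listed, Oc90 higher and Sox2 lower, and these summed to 114 to 124 and 162 to 230.2. The leukocyte marker Ptprc was at 0 in all DMSO libraries and reached 0.21 in PD, and none of 3 erythroid or 6 strial and melanocyte markers is listed. These shifts accompany all of the gene groups below, and their part in the results was not tested. In bulk samples fewer cells of a type and less RNA per cell cannot be told apart.

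Of the 94 solute carrier genes, 54 were higher and 35 lower in PD and 5 were not called (limma on log2(value + 1), adjusted p under 0.05 over all 4994 genes). That is 57.4% higher and 37.2% lower. Over all listed genes, 44.5% were higher and 51.1% lower, and the count called in either direction, 94.7% of the solute carrier genes, stood beside 95.5% of all listed genes. Because the table was selected on this comparison, these shares of calls are a description and are not support for a difference. The same holds for the adjusted p-values of single genes below. In limma, 89 of the 94 genes had an unadjusted p under 0.05, and 89 were called after adjustment. The median log2 difference, PD minus DMSO, was 0.58 over the solute carrier genes and -0.42 over all listed genes. In 90 of the 94 the DMSO and PD values lay apart without overlap, against 95.2% of listed genes. By substrate class, 8 of 11 sugar carrier genes fell, 11 of 13 ion carrier genes and both peptide carrier genes rose, and of 14 amino acid carrier genes 7 rose and 6 fell. Differences between classes were not tested.

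**Figure D1:**
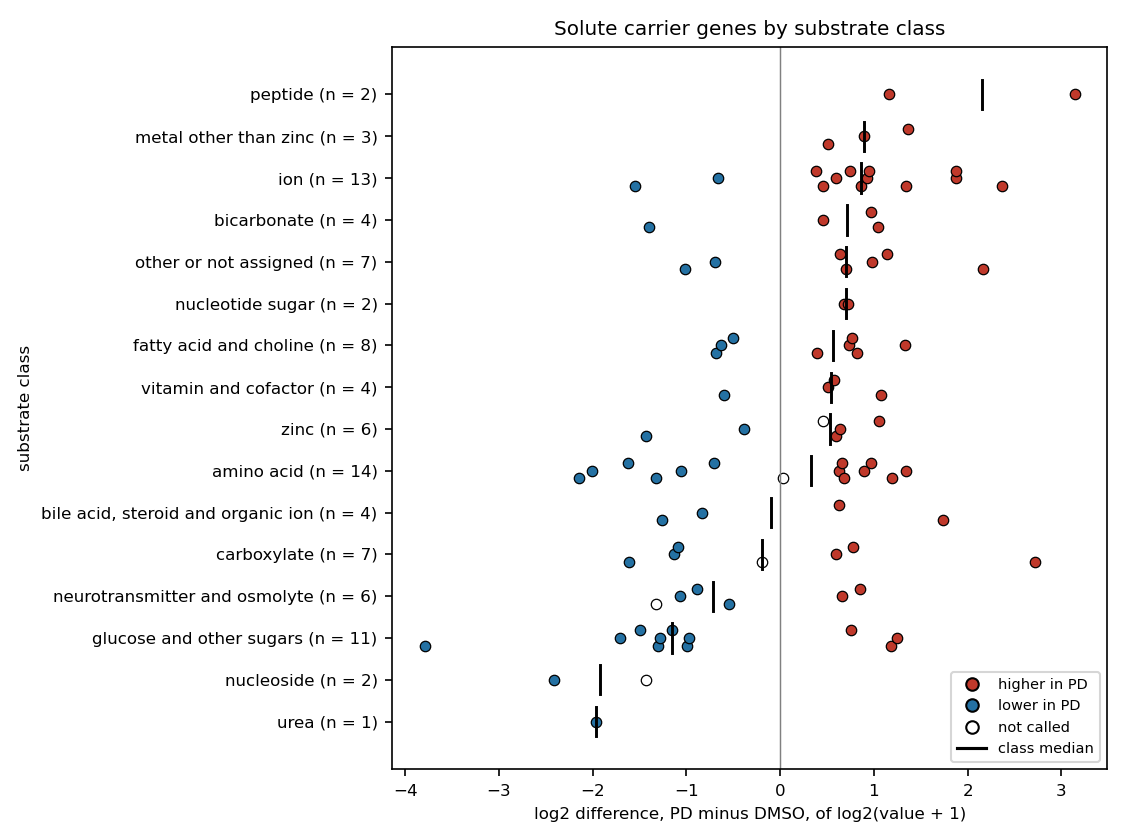
Log2 difference between PD and DMSO of log2(value + 1), on the horizontal axis, for each of the 94 solute carrier genes, grouped by substrate class on the vertical axis and ordered by class median (black bar). Filled points (red higher, blue lower in PD) were called by limma at an adjusted p under 0.05 and open points were not; the sugar class runs from -3.79 to 1.25 and the ion class from -1.55 to 2.37.

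The sequences before the start sites of a pair of zinc carrier genes that moved in opposite directions are shown because zinc itself is known to act on such genes. The Slc30a1 gene encodes a zinc exporter of the cell surface and Slc39a8 an importer of zinc and other divalent metals. The 250 bases before an annotated start of each are given from RefSeq on GRCm38.p6, 5′ to 3′ on the strand of the gene. The Slc39a8 window lies wholly inside the GENCODE span of that gene, which begins at 135825279. It is therefore upstream of this RefSeq start only. The Slc30a1 window ends at 191906780, just past the GENCODE start of 191906767. Capitals mark a match to TGCACNC or TGCGCNC on either strand, the core of the metal response element that the zinc-sensing factor MTF1 is known to bind.
Slc30a1, chr1:191906531-191906780, plus strand: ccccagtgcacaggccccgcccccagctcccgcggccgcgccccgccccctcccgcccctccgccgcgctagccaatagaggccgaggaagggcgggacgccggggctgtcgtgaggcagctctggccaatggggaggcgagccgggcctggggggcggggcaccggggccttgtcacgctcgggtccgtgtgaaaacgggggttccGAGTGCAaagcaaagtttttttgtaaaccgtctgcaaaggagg
Slc39a8, chr3:135825407-135825656, plus strand: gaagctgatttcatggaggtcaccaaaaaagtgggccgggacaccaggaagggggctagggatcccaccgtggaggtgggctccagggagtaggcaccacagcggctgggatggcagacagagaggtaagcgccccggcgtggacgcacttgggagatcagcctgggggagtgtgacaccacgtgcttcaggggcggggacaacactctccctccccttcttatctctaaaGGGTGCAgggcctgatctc

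The match begins 43 bases before the start in Slc30a1 and 19 bases before it in Slc39a8, which has a second annotated start whose window holds none. Among the other zinc carrier genes, not printed, Slc30a2 (higher in PD) held 2 matches. Slc39a11 (not called) held 1 in each of 2 windows, and the window of Slc30a9 (lower) held none. A RefSeq window was found for 72 of the 94 genes, several genes with more than 1, and a gene was counted when any of its windows matched. The metal element was found in 30 of 72 solute carrier genes (41.7%), in 42.9% of those lower and 40.9% of those higher in the authors' deposited table, and in 23.8% of all 27025 genes with a window. The 5 letters ACGTG, the core of the site bound by hypoxia-inducible factors, were found on either strand in 21.4% of the lower and 20.5% of the higher genes, beside 18.5% of all genes. The letters TGATGCAA, found in amino acid response elements, were found in 0 of 72, beside 0.918% of all genes. The sets of genes were not matched for number of windows or base composition, and their shares were not tested. A match is a description of letters and not of a bound site.

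Most sugar carrier genes fell. Of 11 genes 8 fell and 3 rose, with a median log2 difference of -1.15. Slc2a3 (ENSMUSG00000003153, GRCm38 chromosome 6, 122727809 to 122801640, minus strand) encodes GLUT3, a glucose carrier of high affinity that is best known from neurons. It stood at 12.07, 16.78 and 17.79 in DMSO and at 0.31, 0.17 and 0.08 in PD. All PD libraries were below every DMSO library, and the ratio of the DMSO mean to the PD mean was 83.3. Its log2 difference was -3.79 ± 0.17 (SE; limma adjusted p = 1.82e-06), the lowest among the 94 genes.

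The insulin-responsive glucose carrier gene Slc2a4 (GLUT4) fell from 9.76 ± 0.655 to 2.97 ± 1.2 (SD, n = 3), with PD libraries at 3.24, 4.01 and 1.66. Slc2a8, which encodes a carrier of intracellular membranes, fell from 5.01 ± 0.616 to 2.01 ± 0.114, and Slc2a12 from 2.41 ± 0.444 to 0.737 ± 0.0666. Both carriers of glucose-6-phosphate fell: Slc37a4, whose protein brings the sugar phosphate into the endoplasmic reticulum, from 12.6 ± 0.87 to 5.14 ± 0.766, and Slc37a1 from 7.7 ± 2.54 to 2.48 ± 0.576. Slc45a3 fell from 1.92 ± 0.506 to 0.19 ± 0.0436. It shares exons on its strand with the predicted gene Gm29103, whose transcript is nearly identical, so its reads are uncertain in their share.

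The inositol carrier genes moved in opposite directions. Slc5a11, a sodium-coupled carrier of myo-inositol, stood at 12.49, 6.03 and 5.62 in DMSO and at 1.61, 1.57 and 1.7 in PD, and DMSO replicate 1 stood above the other DMSO libraries, which were all above PD. Slc2a13, the proton-coupled inositol carrier, rose from 2.02 ± 0.134 to 5.86 ± 0.835. Slc5a1, which encodes the sodium-glucose cotransporter SGLT1, rose from 1.18 ± 0.0902 to 4.2 ± 0.162, with no overlap. The pseudogene Slc2a4rg-ps rose from 4.49 ± 0.185 to 8.28 ± 0.692, so that 2 of 10 transporter genes of the class rose.

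Carriers of carboxylates such as lactate moved both ways, with 3 higher, 3 lower and 1 not called among 7. Slc16a1, which encodes the lactate and pyruvate carrier MCT1, stood at 9.73, 11.7 and 10.11 in DMSO and at 2.74, 2.53 and 3.03 in PD, a log2 difference of -1.61 ± 0.12 (SE, with a limma adjusted p of 1.66e-05). Slc16a8, which encodes MCT3, a lactate carrier known from the retinal pigment epithelium, went the other way, from 1.38, 2.71 and 3.01 to 19.09, 23.58 and 19.61. Its ratio of means was 8.77 and its log2 difference 2.72 ± 0.21 (SE, with a limma adjusted p of 1.67e-05), the second highest of the 94 genes. That rank holds on the scale of log2(value + 1), which shrinks changes of low genes. Slc5a7, under 1 in every library, had a ratio of means of 8.76 and a log2 difference of 0.82.

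Slc16a7 (MCT2) rose from 2.36 ± 0.588 to 4.77 ± 1.09, and Slc16a11 fell from 3.18 ± 1.12 to 0.94 ± 0.295. Slc16a4 was not called, at 10.58, 13.26 and 11.75 in DMSO and 11.35, 9.93 and 9.49 in PD, where the groups overlap. Outside the naming rule and chosen after their values were seen, the citrate carrier gene Slc13a5 fell from 1.45 ± 0.399 to 0.107 ± 0.0569 and Slc16a9 rose from 0.49 ± 0.0755 to 1.26 ± 0.256. Bsg, which encodes the chaperone that brings MCT1 to the cell surface, fell from 1863 ± 185 to 1189 ± 78.7. Of the 11 chaperone and adaptor genes that were followed 4 are listed, 1 higher (Nptn, a second chaperone of such carriers, log2 difference 1.26) and 3 lower.

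**Figure D2:**
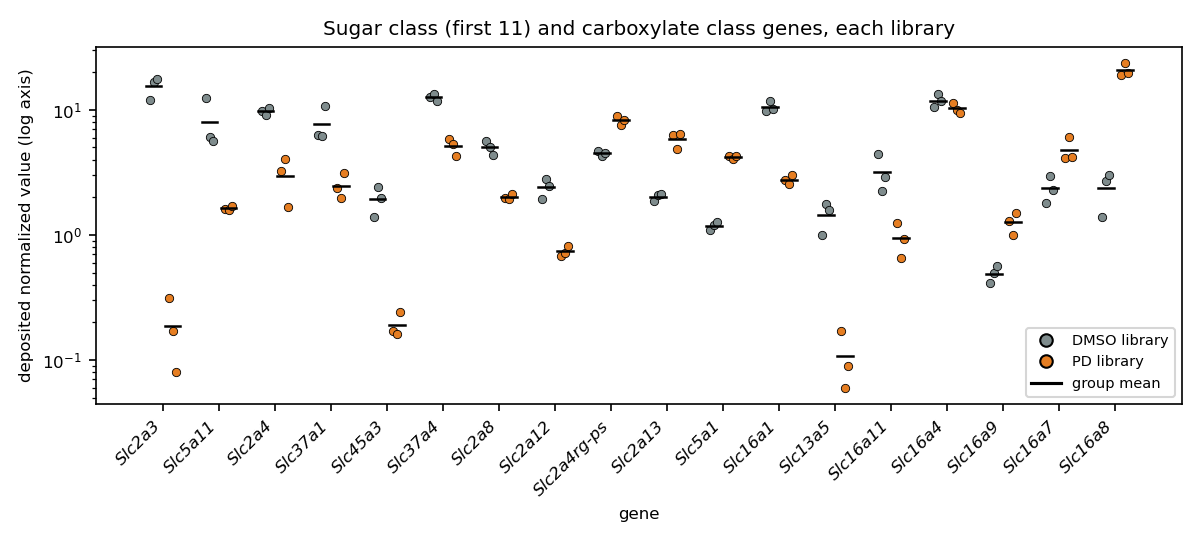
Deposited normalized value of each library on a log axis for the 11 sugar class genes and the 7 carboxylate class genes, ordered by log2 difference within each class, with grey DMSO points, orange PD points and black bars for group means. The Slc2a3 points in PD lie at 0.31 or below against at least 12.07 in DMSO, and the groups overlap in Slc16a4 alone among these 18 genes.

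Amino acid carriers split into 7 higher, 6 lower and 1 not called, with a median log2 difference of 0.33. Those that fell included carriers of neutral amino acids. Slc38a4 (ENSMUSG00000022464, GRCm38 chromosome 15, 96994820 to 97055956, minus strand), a sodium-coupled carrier of the system A type, stood at 7.68, 9.05 and 8.32 in DMSO and at 2.06, 1.85 and 2.22 in PD, a log2 difference of -1.62 ± 0.12 (SE, with a limma adjusted p of 1.55e-05). Slc6a17 and Slc6a15, sodium-coupled carriers known from the brain, fell from 27.6 ± 6.05 to 6.01 ± 0.452 and from 17.6 ± 2.21 to 6.43 ± 0.667. Chosen after its values were seen, the glutamine carrier gene Slc1a5 (ASCT2) fell from 13 ± 1.41 to 5.75 ± 0.61. Slc43a1, which encodes the carrier LAT3 of branched-chain amino acids, spread widely in DMSO, at 9.88, 2.65 and 5.35, and stood at 0.29, 0.55 and 0.44 in PD.

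Those that rose include carriers of cationic and aromatic amino acids and of glutamate. Slc36a1 and Slc7a8, carriers of neutral amino acids, also rose, so genes of neutral carriers moved in both directions. Whether the directions divide by the amino acid carried was not tested. Slc36a1 (ENSMUSG00000020261, GRCm38 chromosome 11, 55204350 to 55236330, plus strand), the proton-coupled carrier PAT1 found on lysosomes, stood at 8.87, 9.4 and 11.17 in DMSO and at 24.13, 24.33 and 22.28 in PD, a log2 difference of 1.19 ± 0.1 (SE, with a limma adjusted p of 3.01e-05). The glutamate carrier gene Slc1a2, known from astrocytes, rose from 1.54 ± 0.01 to 5.47 ± 0.996. Slc7a1, which encodes the arginine and lysine carrier CAT1, rose from 9.7 ± 0.24 to 15.7 ± 2.0, and Slc16a10, an aromatic amino acid carrier gene, from 10.3 ± 0.335 to 17.1 ± 0.319. Further genes of the class, chosen after their values were seen, ranged from a log2 difference of -0.70 in Slc7a15 to 0.66 in Slc6a14, 0.90 in Slc7a2 and 0.97 in Slc7a8.

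The glycine carrier gene Slc6a9, also named after its values were seen, was the one amino acid carrier gene not called. It stood at 10.22, 9.88 and 9.3 in DMSO and at 8.22, 11.95 and 10.21 in PD, so the groups overlap, while the authors' deposited table gives it a fold of 1.665. Without DMSO replicate 3 or without PD replicate 2 the sign of its log2 difference of 0.03 turned.

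The amino acid response, in which the factor ATF4 raises genes of amino acid supply, was followed in a list of 16 genes. Of these 12 are listed, 6 higher, 5 lower and 1 not called. Atf4 rose from 108 ± 7.33 to 179 ± 10.1, Asns, which makes asparagine, from 15.9 ± 0.646 to 30.9 ± 1.74, and Chac1, a glutathione-degrading enzyme gene, from 0.45 ± 0.21 to 4.44 ± 0.715. Trib3 and Ddit4 fell, with log2 differences of -1.45 and -1.63.

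Ion carriers rose in 11 of 13 genes and fell in 2, with a median log2 difference of 0.86; 1 of those that rose is the scaffold gene Slc9a3r1. The largest log2 difference in the class was that of Slc24a3 (ENSMUSG00000063873, GRCm38 chromosome 2, 145167754 to 145642166, plus strand), which encodes a sodium-calcium exchanger that also moves potassium. It stood at 14.82, 14.73 and 15.97 in DMSO and at 78.83, 80.01 and 88.63 in PD, a ratio of means of 5.44 and a log2 difference of 2.37 ± 0.07 (SE, with a limma adjusted p of 5.43e-07). Its relative Slc24a2 rose with a ratio of means of 5.34, from 1.68 ± 0.117 to 8.95 ± 1.59. Of the exchangers without potassium, both named after their values were seen, Slc8a3 rose from 0.247 ± 0.0902 to 0.63 ± 0.174 and Slc8a2 fell from 2.18 ± 0.346 to 1.01 ± 0.187.

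All 3 sodium-proton exchanger genes rose. Slc9a9, an exchanger of endosomes, rose from 2.12 ± 0.232 to 6.91 ± 0.666, Slc9a4 from 5.1 ± 0.95 to 10.5 ± 0.967 and Slc9a2, named after its values were seen, from 3.25 ± 0.673 to 6.68 ± 0.496. Slc9a4 and Slc9a2 lie on chromosome 1 with 49.8 kb between them. Slc9a3r1, which encodes the scaffold NHERF1, rose from 115 ± 8.46 to 223 ± 5.08.

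Slc12a4, which encodes the potassium-chloride cotransporter KCC1, rose from 3.68 ± 1.17 to 15.9 ± 1.56. The sulphate carrier gene Slc26a2, needed in cartilage, rose from 7.72 ± 0.101 to 13.7 ± 1.33. Named after their values were seen, Slc26a1, a second sulphate carrier gene, rose from 0.567 ± 0.142 to 1.15 ± 0.0808 and Slc26a10 fell from 2.97 ± 0.643 to 0.357 ± 0.18.

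The sodium pump, which builds the gradient that many of these carriers use, was followed with the kinases of the chloride cotransporters in a list of 15 genes. Of these 5 are listed, 2 higher and 3 lower, and none of the kinases is among them. The pump regulator gene Fxyd1 rose from 5.16 ± 2.93 to 33.5 ± 1.6. The subunit genes Atp1b1 and Atp1b2 fell, with log2 differences of -0.72 and -0.66.

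Bicarbonate carriers rose in 3 of 4 genes and fell in 1. Slc4a2 (ENSMUSG00000028962, GRCm38 chromosome 5, 24423837 to 24440950, plus strand) encodes AE2, which exchanges chloride for bicarbonate. It stood at 22.32, 26.49 and 23.96 in DMSO and at 50.14, 48.13 and 53.83 in PD, a log2 difference of 1.04 ± 0.08 (SE, with a limma adjusted p of 2.07e-05). Slc4a4 (ENSMUSG00000060961, GRCm38 chromosome 5, 88886818 to 89239653, plus strand), the sodium-bicarbonate cotransporter gene, fell from 16.15, 18.74 and 16.77 to 6.03, 5.25 and 6.5, a log2 difference of -1.40 ± 0.11 (SE, with a limma adjusted p of 2.04e-05). Each group was separate from the other in both genes, and the exchanger and the cotransporter moved in opposite directions.

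The anion exchanger gene Slc26a6 rose from 3.88 ± 0.692 to 8.63 ± 2.21. Slc26a7 rose from 0.0567 ± 0.0231 to 0.467 ± 0.221 and stayed under 1 in every library. Of 15 carbonic anhydrase genes, whose enzymes convert carbon dioxide and bicarbonate, 6 are listed, 2 higher and 4 lower. Car9 fell from 155 ± 17.6 to 7.44 ± 1.98, Car12 from 22.5 ± 2.74 to 13.4 ± 0.404, and Car3 rose from 0.103 ± 0.0961 to 4.72 ± 0.3.

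**Figure D3:**
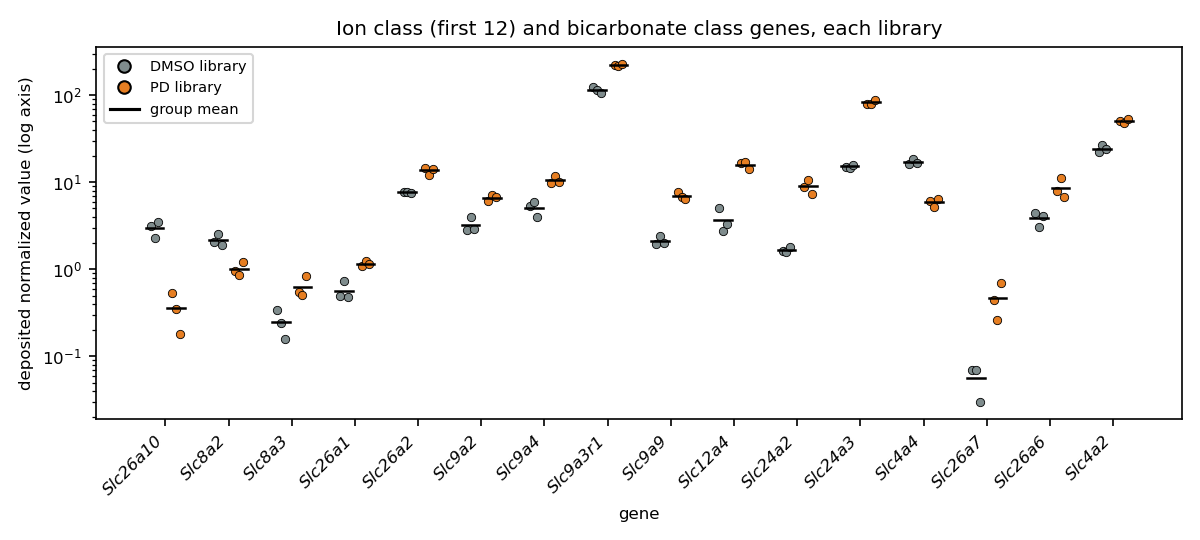
Deposited normalized value of each library on a log axis for 12 of the 13 ion class genes and the 4 bicarbonate class genes, ordered by log2 difference within each class, with grey DMSO points, orange PD points and black bars for group means. The groups do not overlap in any of these 16 genes, and Slc24a3 stands at 78.83 to 88.63 in PD against 14.73 to 15.97 in DMSO.

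Zinc carriers gave 3 higher, 2 lower and 1 not called among 6. Slc39a8 (ENSMUSG00000053897, GRCm38 chromosome 3, 135825279 to 135888572, plus strand) is the importer gene whose RefSeq window is given above. It fell from 128.74, 142.17 and 131.36 to 46.9, 46.63 and 54.48, a log2 difference of -1.43 ± 0.08 (SE, with a limma adjusted p of 3.77e-06). The exporter gene Slc30a1 (ENSMUSG00000037434, GRCm38 chromosome 1, 191906767 to 191913247, plus strand) rose from 3.72, 4.24 and 3.79 to 9.1, 8.03 and 10.64, a log2 difference of 1.05 ± 0.13 (SE, with a limma adjusted p of 1.84e-04). The groups of both genes lay apart.

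Slc39a6, a second importer gene, rose from 15.6 ± 0.722 to 25 ± 1.98. Slc30a9 fell from 52.3 ± 1.61 to 39.8 ± 2.8, a ratio of the DMSO mean to the PD mean of 1.32. Slc30a2, which encodes a vesicular zinc carrier, rose from 0.223 ± 0.1 to 0.857 ± 0.227. Slc39a11 was not called: replicate 2 was the highest library in both groups, at 22.39 in DMSO and 30.24 in PD, and the others stood at 11.92 and 12.18 and at 13.89 and 21.1. Without DMSO replicate 2, Slc39a11 was called higher (log2 difference 0.74, limma adjusted p = 0.0482).

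Of the zinc response list, which holds the metallothionein genes Mt1, Mt2 and Mt3 and Mtf1, Mt1 is listed. It encodes a zinc-storing protein and fell from 51.9 ± 7.55 to 9.82 ± 4.81, a log2 difference of -2.37. Mt1 and Slc30a1 are both known targets of the factor MTF1, and here they moved in opposite directions.

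Carriers of other metals rose in all 3 genes of the class. The magnesium carrier gene Slc41a1 rose from 14.5 ± 2.16 to 38.3 ± 1.07, the copper carrier gene Slc31a2 from 5.68 ± 0.751 to 11.4 ± 0.541, and the manganese exporter gene Slc30a10 from 0.483 ± 0.116 to 1.12 ± 0.227.

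Of both nucleoside and nucleobase carrier genes, Slc29a1 fell. Slc29a1 (ENSMUSG00000023942, GRCm38 chromosome 17, 45585200 to 45599606, minus strand) encodes ENT1, which lets nucleosides such as adenosine and uridine equilibrate across the cell surface. It stood at 61.27, 56.11 and 58.83 in DMSO and at 10.28, 10.57 and 9.94 in PD. The replicates of each group lay close together, the ratio of the DMSO mean to the PD mean was 5.72, and the log2 difference was -2.41 ± 0.07 (SE; limma adjusted p = 3.84e-07).

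Slc43a3, a carrier gene of purine nucleobases, stood at 7.58, 5.29 and 44.15 in DMSO and at 3.16, 4.33 and 4.65 in PD. All PD values were below all DMSO values, but DMSO replicate 3 alone was far above the rest, and the gene was not called (log2 difference -1.43 ± 0.67, SE; limma adjusted p = 0.0719). Without DMSO replicate 3 it was called lower with a log2 difference of -0.55 (limma adjusted p = 0.0415), and without DMSO replicate 2 with -1.98 (0.0251). Slc43a1 lies 73 kb from Slc43a3 on chromosome 2, and its highest DMSO library was replicate 1.

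Of 14 genes of nucleoside salvage and breakdown 8 are listed, 6 lower and 2 higher. Cda, which deaminates cytidine, fell from 40.6 ± 4.84 to 3.82 ± 0.225, the adenosine deaminase gene Ada from 4.12 ± 0.512 to 0.753 ± 0.131 and the thymidine kinase gene Tk1 from 41.8 ± 3.45 to 15 ± 1.79. Upp1, which splits uridine, rose from 4.26 ± 2.69 to 25.8 ± 1.59.

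**Figure D4:**
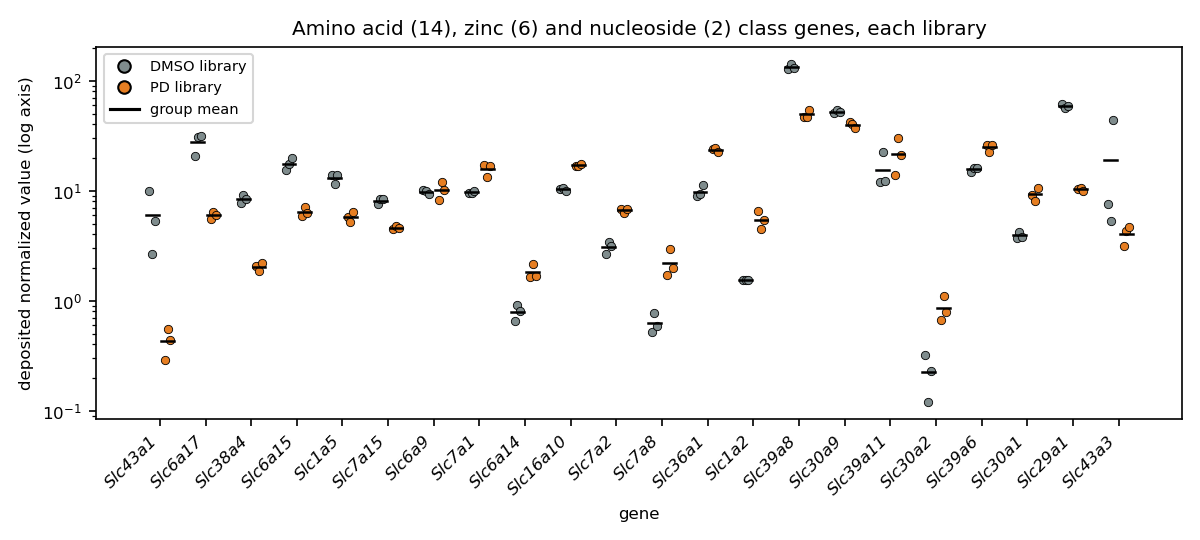
Deposited normalized value of each library on a log axis for the 14 amino acid, 6 zinc and 2 nucleoside class genes, ordered by log2 difference within each class, with grey DMSO points, orange PD points and black bars for group means. The Slc29a1 points lie at 56.11 or above in DMSO and at 10.57 or below in PD, while the DMSO points of Slc43a3 run from 5.29 to 44.15.

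Both peptide carrier genes rose. Slc15a5, a member of the peptide carrier family whose substrate is not settled, had the highest log2 difference of the 94 genes. It stood at 0.9, 1.37 and 0.25 in DMSO and at 14.39, 13.11 and 16.86 in PD, a ratio of means of 17.6 and a log2 difference of 3.14 ± 0.24 (SE, with a limma adjusted p of 1.59e-05). Slc15a2, which encodes the dipeptide carrier PEPT2, rose from 63.06, 66.66 and 63.61 to 151.54, 139.89 and 144.06. The urea carrier gene Slc14a1 fell from 7.59 ± 0.856 to 1.21 ± 0.244, with a log2 difference of -1.96.

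Carriers of fatty acids and choline gave 5 higher and 3 lower. Slc44a2, a choline carrier-like gene known in the inner ear as an antigen of supporting cells, stood at 73.68, 74.04 and 70.22 in DMSO and at 180.16, 188.44 and 183.8 in PD, a log2 difference of 1.33 ± 0.05 (SE, with a limma adjusted p of 9.53e-07). Its relative Slc44a3 rose from 183 ± 8.56 to 242 ± 19.4, a ratio of means of 1.32, and Slc44a4 fell from 8.89 ± 1.24 to 5.37 ± 0.611. Slc5a7, the high-affinity choline carrier gene of cholinergic neurons, rose from 0.11 ± 0.0624 to 0.963 ± 0.00577 and stayed under 1. Of the fatty acid transport protein genes, Slc27a4 and Slc27a2 rose from 6.52 ± 0.426 to 11.8 ± 0.565 and from 5.13 ± 0.84 to 9.36 ± 2.13, and Slc27a3 fell from 19 ± 2.0 to 11.5 ± 1.26. Slc27a6 stood at 0.48, 1.27 and 0.59 in DMSO and at 0.45, 0.04 and 0.24 in PD; it was called lower, and that call was lost without DMSO replicate 2, without PD replicate 2 and without PD replicate 3 (limma adjusted p = 0.0839, 0.111 and 0.0696). It was also lost under median centring (limma adjusted p = 0.0823).

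Carriers of neurotransmitters and osmolytes gave 2 higher, 3 lower and 1 not called. The creatine carrier gene Slc6a8 fell from 31.4 ± 2.27 to 16.5 ± 1.21, the monoamine carrier gene Slc29a4 from 4.08 ± 1.75 to 1.34 ± 0.247, and the vesicular monoamine carrier gene Slc18a2 from 2.97 ± 0.728 to 1.68 ± 0.145. The following genes were named after their values were seen. Slc17a8, which encodes the vesicular glutamate carrier VGLUT3 of inner hair cells, stood at 0.1, 0.29 and 0.12 in DMSO and at 0.95, 0.66 and 0.94 in PD, so it was higher in PD and under 1 in every library. Slc18a1 rose from 0.95 ± 0.365 to 2.49 ± 0.377. Slc17a9, the vesicular nucleotide carrier gene, was not called: DMSO replicate 1 stood at 9.03 and the others at 1.12 and 1.13, and PD replicate 2 stood at 1.38 and the others at 0.08 and 0.13. It was called lower without DMSO replicate 3 (limma adjusted p = 0.0454) and with a pseudocount of 0.1 (limma adjusted p = 0.0389).

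Vitamin and cofactor carriers gave 3 higher and 1 lower. Slc23a2, which takes up ascorbate, rose from 6.63 ± 1.54 to 15 ± 0.796, the folate carrier gene Slc46a1 from 3.58 ± 0.246 to 5.87 ± 1.1 and the riboflavin carrier gene Slc52a2 from 1.97 ± 0.0907 to 3.23 ± 0.245, and the lysosomal carrier gene Slc46a3 fell from 3.52 ± 0.506 to 1.99 ± 0.352. Carriers of bile acids, steroids and organic ions gave 2 higher and 2 lower. Slc10a3, placed here by family with its substrate not settled, rose from 3.07 ± 0.586 to 12.5 ± 0.89. Slc22a15 rose from 1.45 ± 0.227 to 2.8 ± 0.552. Slc22a21, a carnitine carrier gene of mouse, fell from 11.3 ± 4.01 to 4.06 ± 1.27 and the organic cation carrier gene Slc22a3 from 1.26 ± 0.348 to 0.263 ± 0.0351. Slc10a3 shares exons on its strand with Ubl4a.

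Nucleotide sugar carriers feed glycan synthesis in the endoplasmic reticulum and Golgi. Both genes placed by family in this class rose. Slc35b1 went from 26.5 ± 5.57 to 42.7 ± 1.92 and Slc35b4 from 10.2 ± 0.563 to 17.6 ± 2.08. Family placement does not show that Slc35b1 carries nucleotide sugars. Among 7 genes of other or unassigned substrate 5 rose and 2 fell. Slc35f5 stood at 26.6, 28.13 and 30.29 in DMSO and at 137.91, 127.22 and 125.87 in PD, a ratio of means of 4.6 and a log2 difference of 2.16 ± 0.07 (SE, with a limma adjusted p of 6.64e-07). Slc22a23, Slc49a4, Slc22a18 and Slc35e4 rose with log2 differences of 0.98, 0.70, 1.14 and 0.64. Slc35g1 fell with -0.69, as did Slc35f3, named after its values were seen, with -1.01.

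The deposited values were compared with the authors' folds gene by gene. The log2 ratio of the group means and the log2 fold of the authors' deposited table differed by at most 0.5 in 88 of the 94 genes, with a median difference of 0.02, and pointed opposite ways in 0. In 6 genes they were more than 0.5 apart, and in each the ratio of means lay lower. For Slc43a3 the log2 ratio of means was -2.23 against -1.06 in the authors' deposited table, for Slc43a1 -3.80 against -2.75, and for Slc6a9 0.05 against 0.74. Slc22a15, Slc5a11 and Slc26a10 completed the 6. How the authors' folds were computed is not given in the sources used here.

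**Figure D5:**
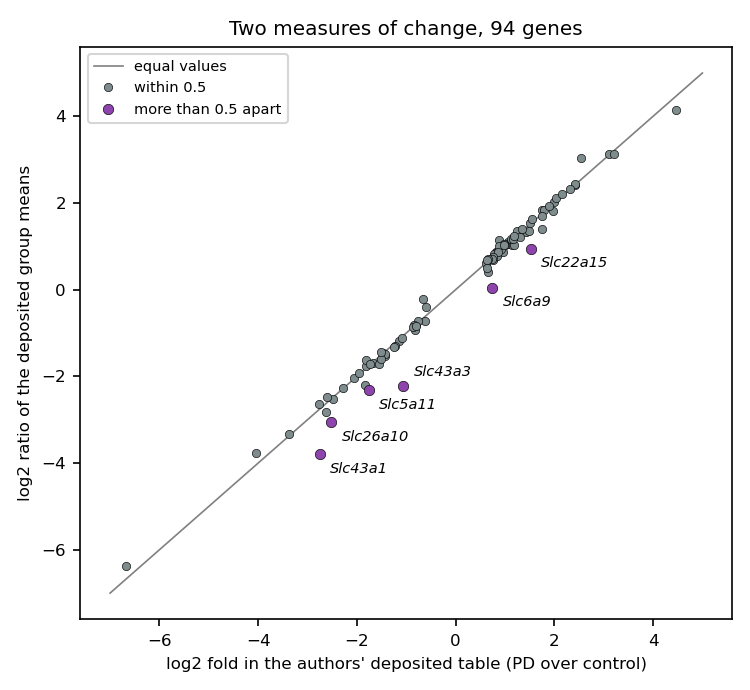
Log2 ratio of the deposited group means on the vertical axis against the log2 fold of PD over control in the authors' deposited table on the horizontal axis, 1 point for each of the 94 genes, with a line of equal values. The 6 purple, named points are more than 0.5 apart and lie below the line, and the other 88 lie within 0.5 of it.

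Replicates of a group differed by 3-fold or more in 8 genes, and in 3 of them the group had a mean of at least 1: Slc43a1 and Slc17a9, whose high library was DMSO replicate 1, and Slc43a3, whose high library was DMSO replicate 3. Exons of 22 of the 94 genes overlap those of a gene on the opposite strand, among them Slc4a2, Slc29a1, Slc30a1, Slc6a9, Slc12a4 and Slc1a2. The library kit marks strand, but how HTSeq treated strand is not stated in the labels, so reads of such pairs may not be told apart.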

How the data were processed

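RNA-seq values of 6 organoid samples were used, 3 with DMSO and 3 with PD0325901. The authors deposited a normalized signal per gene and sample, with 2 decimals and no stated scale, and their own fold (a ratio), log2 fold and p-value columns. Per the submitters' processing notes the build was mm10 and the tools included HISAT2, HTSeq, DESeq2 and Trimmomatic; versions, settings and normalization are not stated there. Genes were tested with limma 3.58.1 (R 4.3.3, variance trend, no block, no filter) on log2(value + 1) over all 4994 listed genes with Benjamini-Hochberg adjustment and a threshold of 0.05. Fold changes on that scale understate changes of low genes. The test was tried on simulated data in which most genes were unchanged. The listed genes were selected on this comparison, so that trial gives no error rate for them. Depth is unknown, so no counting interval is given.

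Named are all sugar, bicarbonate, zinc and nucleoside carrier genes. In each other class, up to 6 genes with the largest difference among those whose mean reached 5 in either group, and up to 2 more with the highest mean, are named. This gave 77 of 94, of which 1 is not reported here, nor is 1 linked gene. The members, classes and lists were chosen with earlier results of these data known. Overlaps and coordinates come from GENCODE M21 (GRCm38), where all 94 IDs were found, and near-identical transcripts from blastn 2.17.0 (at least 95% identity over 80% of the length). The alternatives were pseudocounts of 0.1 and 0.5, a filter (at least 1 in 3 samples), median centring, scaling to the total, no trend, the replicate block and leaving out each sample.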

Additional observations from a re-analysis of the deposited data

How the results depend on the processing

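Of the 94 genes, 90 kept their call under every alternative run on them, 13 for most and 12 for the 10 genes that the filter removed. The listed genes were selected on this comparison, which favours kept calls beforehand, so this count is a description. The same share over all listed genes is not given. The count of nucleoside carrier genes called lower, 1, became 2 with the replicate block and ranged from 1 to 2 when single samples were left out, since Slc43a3 was then called. The log2 difference of Slc6a9, 0.03, ranged from -0.09 (without PD replicate 2) to 0.16 (without PD replicate 1) and was -0.0 without DMSO replicate 3. Slc27a6 lost its call under median centring (-0.37, limma adjusted p = 0.0823), the replicate block (-0.5, 0.0558) and without 3 of the single samples. Slc17a9 was called lower with a pseudocount of 0.1 (0.0389) and without DMSO replicate 3 (0.0454). The causes were not tested. Samples of the same number deviated together with correlations of 0.000149, 0.0356 and 0.0191, so the numbers were not taken to pair samples; the block called 55 genes higher and 35 lower, adding Slc43a3 (-1.43, limma adjusted p = 0.0285) and Slc39a11 (0.46, 0.0155) and losing Slc27a6. The filter left 84 of the 94 genes, with 47 higher and 32 lower. Median centring moved all log2 differences by 0.135 and gave 54 higher and 34 lower. Unknown depth limits the genes under 1 in both groups, of which there are 6.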
